A study of Rattus norvegicus with 12 samples.

Results

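Somatostatin, cortistatin and the somatostatin receptors Sstr1 to Sstr5 were followed in forebrain RNA of rats exposed to new surroundings. The 7 genes were taken by name: every probe set whose platform annotation gives exactly 1 gene symbol, equal to one of them, was a member. This gave 9 of 31042 transcript probe sets, for 6 of the 7 genes, since no probe set carries the symbol Cort alone. The 7 genes were chosen by family, but the family was selected on the intensities of its probe sets in the exposed and control animals, that is, with the results of this comparison known. The differences between the groups are therefore a description of these animals, and the adjusted p-values are given only to say which probe sets passed the threshold used for all probe sets.

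The exposed group was 6 male Long Evans rats aged 6 weeks left for 3 hours in unfamiliar surroundings among objects differing in shape and colour. The control group was 6 rats of the same strain, sex and age that stayed in a standard laboratory cage. Animals of both groups had been kept singly for several days before, and no allele or drug is named for either group. RNA came from the forebrain as a whole and each animal was measured on 1 Affymetrix rat array, so cortex, hippocampus, striatum and the other forebrain regions cannot be told apart, and neither can fewer cells of a type and less RNA per cell. Values are probe set intensities in arbitrary linear units, and differences are in log2 units, exposed minus control.

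Somatostatin is a peptide hormone and neuromodulator cut from a precursor, and in the forebrain it is made mainly by a class of GABAergic interneurons that contact the dendrites of principal cells. Cortistatin is a related peptide of cortical and hippocampal interneurons that binds the same receptors. The receptors couple to inhibitory G proteins, lower cyclic AMP, open inwardly rectifying potassium channels and restrain calcium channels, which quiets the cell that carries them.

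In exposed animals the transcript of the receptor gene Sstr2 rose, 1.65-fold at its brightest probe set and 1.34-fold at the other. Sst itself differed by 0.01 on the log2 scale, with a 95% interval of the fit from -0.08 to 0.10. None of the probe sets of Sstr1, Sstr3, Sstr4 and Sstr5 passed. Over the family 2 of 9 probe sets passed in limma at an adjusted p under 0.05, both higher, against 2.56% of all probe sets that passed in either direction, 1.97% that passed and were higher, and 0.599% that passed and were lower. Nothing is read from that share, since the family was selected on this comparison.

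The promoters of Sst and Sstr2 are shown because Sst encodes the peptide, Sstr2 is the receptor gene that rose, and both hold the full cyclic AMP response element, the binding site of CREB-family factors. Each window runs from 250 bases before to 50 bases after the annotated gene start in RefSeq (build GRCr8), 5′ to 3′ on the strand of the gene. Both genes lie on the plus strand, Sst at chr11:90461296-90461595 and Sstr2 at chr10:99163103-99163402. Capitals mark the element TGACGTCA.
Sst: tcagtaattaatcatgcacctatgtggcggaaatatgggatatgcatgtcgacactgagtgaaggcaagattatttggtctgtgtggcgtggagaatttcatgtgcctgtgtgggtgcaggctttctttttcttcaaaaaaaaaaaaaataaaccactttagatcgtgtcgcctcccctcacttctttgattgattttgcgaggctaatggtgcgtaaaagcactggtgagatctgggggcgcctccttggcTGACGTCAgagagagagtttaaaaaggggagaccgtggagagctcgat
Sstr2: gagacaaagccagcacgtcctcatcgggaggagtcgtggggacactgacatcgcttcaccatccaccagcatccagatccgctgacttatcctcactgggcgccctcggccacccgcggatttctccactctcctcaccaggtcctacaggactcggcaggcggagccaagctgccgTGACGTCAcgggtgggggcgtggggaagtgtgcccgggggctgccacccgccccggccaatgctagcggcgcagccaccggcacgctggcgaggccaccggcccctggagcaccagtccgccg

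All 7 genes had a promoter entry, and 2 of the 7 held TGACGTCA, against 1.83% of 33469 rat promoter windows of the same length. Counted from the annotated starts, the element spans bases 3 to 10 in Sst and bases -73 to -66 in Sstr2. Where transcription of either gene begins was not measured here, so these positions may not be those from the start in use. The shorter site CGTCA, searched on both strands and contained in the full element, was in 4 of the 7 windows (Sst, Cort, Sstr1 and Sstr2), against 21.2% of all windows. Neither TGANTCA, a letter pattern of AP-1, nor GCGTGGGCG, a letter pattern of the Egr factors, was in any of the 7 windows, against 7.33% and 0.544% of all windows. These are matches of letters and were not tested for binding. The motifs were chosen with these sequences in view, so nothing is read from the shares.

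Sst was measured by 1 probe set. Its intensity was 3784, 3382, 3716, 3744, 3570 and 3613 in exposed animals 1 to 6, against 3424, 3394, 3795, 3557, 3906 and 3556 in control animals 1 to 6. The 2 groups overlapped over nearly their whole ranges, and both the highest and the second highest animal were controls. The mean was 3635 ± 148 in exposed animals and 3605 ± 205 in control animals (SD, n = 6 each), a log2 difference of 0.01 ± 0.04 (standard error of the fit, adjusted p = 1.00). The interval of the fold ran from 0.949 to 1.07.

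Cortistatin could not be read from a probe set of its own. Of the probe sets, 4 are annotated to Cenps, Pgd, Kif1b and Cort together, and they are not assigned to any of these genes here. For one of them the accession in the annotation is the RefSeq transcript of Cort. Its intensity was 537 ± 38.2 in exposed animals and 486 ± 39.0 in control animals (SD, n = 6 each), a log2 difference of 0.14 ± 0.06 that did not pass (adjusted p = 0.350). The other 3 had log2 differences between -0.01 and 0.04.

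**Figure D1:**
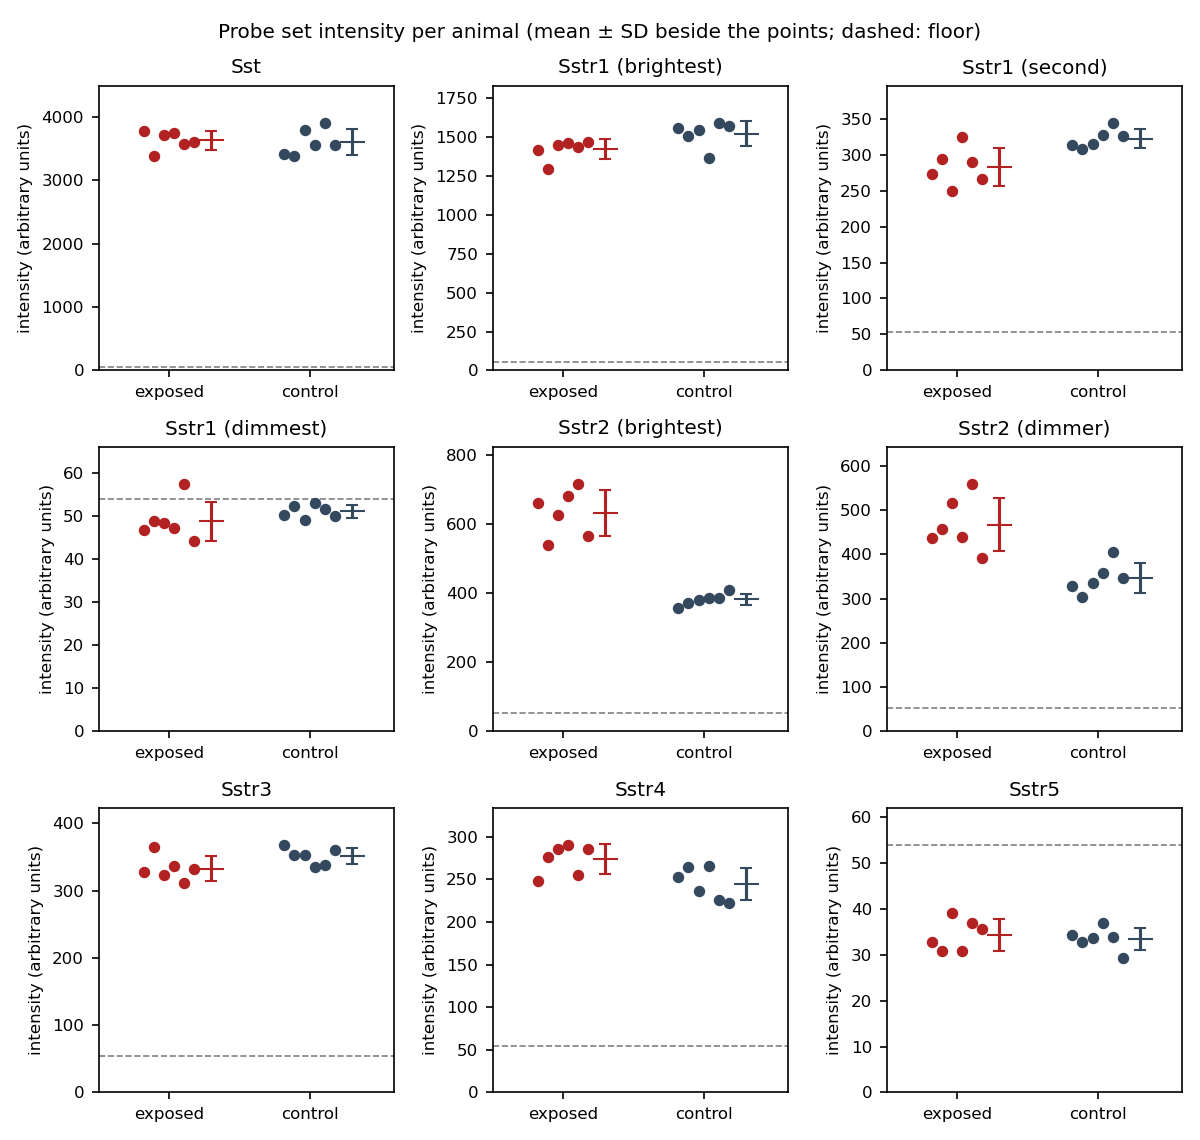
Intensity (arbitrary linear units) of the 9 probe sets of the family in each animal, exposed left and control right, animals 1 to 6 from left to right, with the mean ± SD beside the points and the floor of 53.9 dashed. All 6 exposed animals lie above every control animal at the brightest Sstr2 probe set, the groups overlap for Sst, Sstr1, Sstr3 and Sstr4, and Sstr5 lies under the floor on every array.

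Sstr2 encodes a receptor found on many principal neurons of cortex and hippocampus, where its activation hyperpolarises the cell. At the brightest probe set the intensity was 661, 540, 627, 683, 716 and 567 in exposed animals 1 to 6, against 359, 373, 381, 386, 385 and 410 in control animals 1 to 6. Every exposed animal was above every control animal, with a gap between 540 in the lowest exposed animal and 410 in the highest control animal. Groups that did not overlap were found in 2.71% of all probe sets, with the exposed animals above in 1.98%. The mean was 632 ± 68.0 in exposed animals and 382 ± 16.8 in control animals (SD, n = 6 each), a log2 difference of 0.72 ± 0.07 (1.65-fold, interval 1.49 to 1.83, adjusted p = 0.000231 in limma). The exposed animals also varied more among themselves at this probe set, with a log2 SD of 0.16 against 0.06 in the control animals, a difference in spread that was not tested.

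The dimmer Sstr2 probe set moved the same way by less. Its intensity was 437, 457, 515, 440, 558 and 392 in exposed animals 1 to 6, against 328, 304, 334, 357, 406 and 346 in control animals 1 to 6. Of the 6 exposed animals 5 were above every control animal, and exposed animal 6 lay under control animal 5. The mean was 466 ± 60.1 in exposed animals and 346 ± 34.4 in control animals (SD, n = 6 each), a log2 difference of 0.43 ± 0.09 (1.34-fold, interval 1.17 to 1.55, adjusted p = 0.0342). Exposed animal 5 was the highest animal at both probe sets. Over the 12 animals, with each group's mean taken away, Pearson r between the 2 probe sets was 0.47. The suffix of the dimmer probe set's name is the one Affymetrix gives to probes shared by several transcripts, and where either probe set lies in the gene is not used here.

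**Figure D2:**
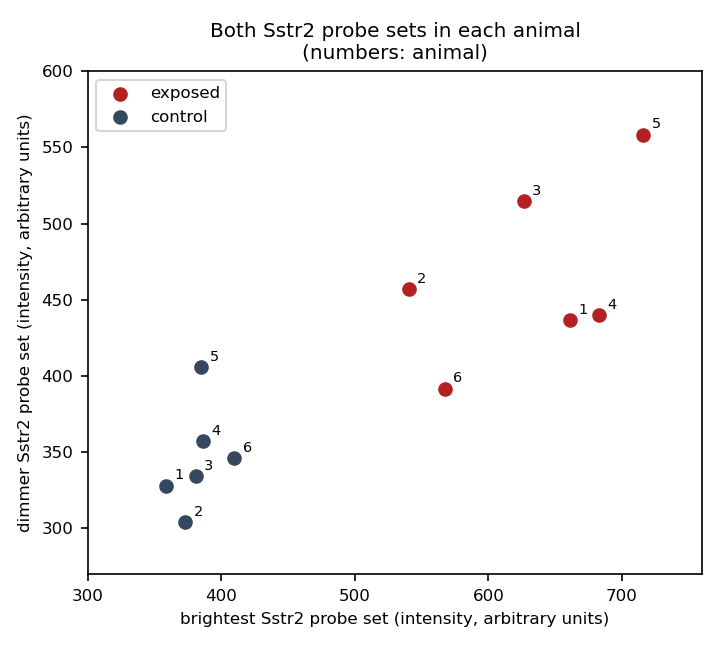
Intensity (arbitrary linear units) of the brightest Sstr2 probe set on the horizontal axis and of the dimmer one on the vertical axis, 1 point per animal, numbered within its group; both axes start above 0. The exposed animals lie between 540 and 716 on the horizontal axis and the control animals between 359 and 410, while on the vertical axis exposed animal 6 (392) lies under control animal 5 (406).

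The brightest Sstr2 probe set passed in all 24 alternative settings tried, with log2 differences from 0.68 to 0.76. The dimmer one passed in 11 of the 24 and was higher in exposed animals in all of them. The settings in which it missed the threshold include leaving out any 1 animal other than control 5 or exposed 6 (adjusted p from 0.0511 to 0.0805), taking RNA quality as a covariate (adjusted p = 0.110), and leaving out control 4 and exposed 3 and 5 together (log2 difference 0.33, adjusted p = 0.132), where the brightest one had a log2 difference of 0.68 (adjusted p = 0.00680). These 3 arrays are left out because control 4 had high olfactory bulb markers and exposed 3 and 5 had the lowest correlation with their own group. The measure of RNA quality, how far the control probe sets at the 3 prime end of Gapdh and beta-actin exceed those at the 5 prime end in log2 units, was 0.45 ± 0.07 in exposed animals and 0.39 ± 0.05 in control animals (SD, n = 6 each). With it as a covariate the brightest Sstr2 probe set had a log2 difference of 0.75 (adjusted p = 0.00137). Among the 372 genes whose brightest probe set passed and was higher, 30 had a larger log2 difference than Sstr2, and the median of the 372 was 0.28.

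Sstr4, a receptor strongly expressed in hippocampal and cortical neurons, was measured by 1 probe set. Its intensity was 247, 276, 286, 290, 256 and 285 in exposed animals 1 to 6, against 252, 264, 236, 266, 226 and 222 in control animals 1 to 6. Of the exposed animals 4 were above every control animal, and the other 2 lay within the control range. The log2 difference was 0.16 ± 0.06 (1.12-fold, interval 1.02 to 1.23) and did not pass (adjusted p = 0.245).

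Sstr1 encodes a receptor that is found on axons as well as cell bodies and can act as an autoreceptor on somatostatin cells. Its brightest probe set had 1420, 1297, 1451, 1460, 1435 and 1472 in exposed animals 1 to 6, against 1557, 1509, 1547, 1365, 1591 and 1571 in control animals 1 to 6. All exposed animals lay under 5 of the 6 control animals, and control animal 4 (1365) lay within the exposed range. The log2 difference was -0.10 ± 0.04 (adjusted p = 0.330).

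The second Sstr1 probe set had 273, 294, 249, 325, 289 and 266 in exposed animals 1 to 6, against 314, 308, 315, 327, 344 and 326 in control animals 1 to 6. Here 5 of 6 exposed animals were below every control animal, and exposed animal 4 was within the control range. The log2 difference was -0.19 ± 0.06 (adjusted p = 0.136). This probe set passed in 1 of the 24 alternative settings, the one without exposed animal 4 (-0.23, adjusted p = 0.0360). The difference was nearest to none, at -0.12, when the fit allowed for RNA quality (adjusted p = 0.389). Leaving out exposed animal 3 gave -0.16 (adjusted p = 0.190). Over the 12 animals, with each group's mean taken away, Pearson r between the brightest and the second Sstr1 probe set was -0.09. The third Sstr1 probe set was at the floor on 11 of 12 arrays, with intensities of 44.2 to 57.3 in exposed animals and 49.1 to 52.9 in control animals, and gives no measured difference.

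Sstr3, a receptor known for its place in the primary cilia of neurons, was measured by 1 probe set. Its intensity was 328, 365, 324, 336, 311 and 332 in exposed animals 1 to 6, against 368, 353, 353, 335, 339 and 361 in control animals 1 to 6. Of the exposed animals 4 were below every control animal, while exposed animal 2 was the second highest of all 12 animals. The log2 difference was -0.08 ± 0.04 (interval of the fold 0.892 to 1.00, adjusted p = 0.429).

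Sstr5, which is best known from the pituitary and the pancreatic islet, lay under the floor of 53.9 on all 12 arrays, with 30.7 to 39.2 in exposed animals and 29.4 to 36.8 in control animals. No difference between the groups is given for it.

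**Figure D3:**
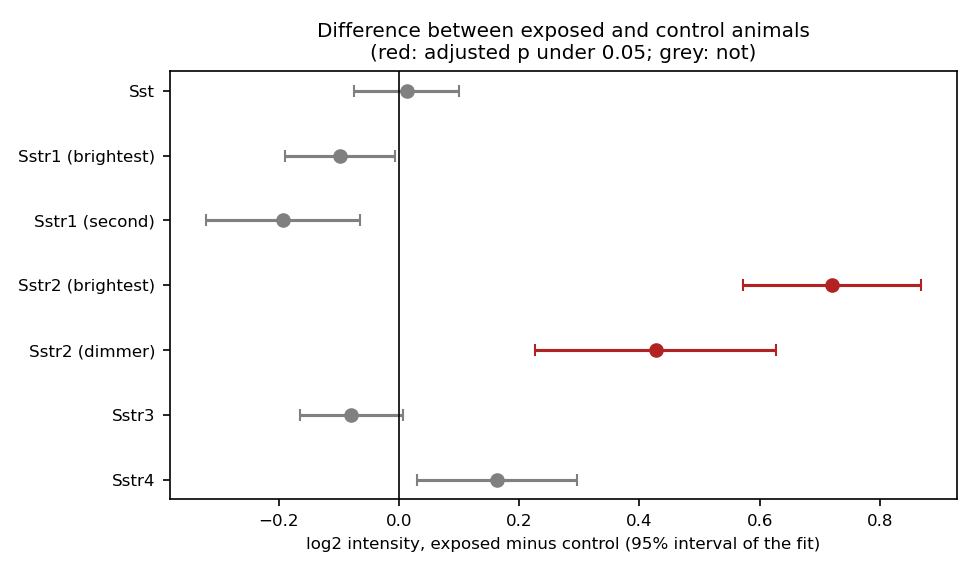
Log2 difference in intensity (exposed minus control, horizontal axis) with its 95% interval for the 7 probe sets of the family that were above the floor on every array, 6 animals per group. The 2 Sstr2 probe sets, at 0.72 and 0.43, passed at an adjusted p under 0.05, and the others lie between -0.19 and 0.16.

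The animals also differ within each group, which leaves out the comparison between groups. After each group's mean was taken away, the genes whose log2 intensity followed that of Sst most closely over the 12 animals, out of 10302 genes, were Dcaf4 (Pearson r = 0.91), Ndufa1 (r = 0.86), Naa38 (r = 0.85), Phf5a (r = 0.85) and Pam16 (r = 0.83). None of them is in the interneuron lists. With Spearman rho in place of r, Dcaf4 was again at rank 1, Phf5a moved from rank 4 to rank 2, and Ndufa1, Naa38 and Pam16 moved from ranks 2, 3 and 5 to ranks 35, 11 and 45. By the same measure, used for Sstr2 after its values were seen, Nxph3 (r = 0.90), Ptk2b (r = 0.87), Ttll1 (r = 0.85), Ash1l (r = 0.84) and Slfn5 (r = 0.83) were closest to the brightest Sstr2 probe set. These values are the highest of 10302 over 12 animals of 1 tissue, and points share array and dissection. With Sstr2, Ptk2b had r = 0.92 in exposed animals alone and 0.38 in control animals alone. Among the other genes named for Sstr2 the lowest such r was 0.73, for Ash1l in control animals.

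Genes known from somatostatin interneurons followed Sst unevenly over the animals. Of 18 such genes above the floor on some array, r with Sst ran from -0.58 to 0.70 with a median of 0.02, and over the 10302 genes the median was 0.01. The 10302 genes passed a stricter limit on brightness, so the sets are not alike. Pnoc, the precursor of nociceptin, had r = 0.70 and Npy, neuropeptide Y, which many somatostatin cells also make, had r = 0.67. Of 22 genes of other interneurons and of GABA handling, r ran from -0.43 to 0.67 with a median of 0.17.

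The cells that make the peptides were looked at through 3 lists. Of genes known from somatostatin interneurons 1 of 19 passed and was higher, against 3.46% of 14217 genes that passed in either direction, 2.62% higher and 0.844% lower. The median log2 difference was 0.00, the value of Myh8, which was at the floor on all 12 arrays. The median over all genes was also 0.00, and genes at the floor on every array have a difference of 0 there too. The gene that passed was Pnoc, at 292 ± 14.0 in exposed animals and 244 ± 8.59 in control animals (SD, n = 6 each, 1.20-fold, adjusted p = 0.00358). Crhbp, which binds corticotropin-releasing hormone, had a log2 difference of 0.26 ± 0.08 (adjusted p = 0.135), and the potassium channel gene Kcnc2 one of 0.05 ± 0.03 (adjusted p = 0.423). The summed intensity of the list was 17285 to 18115 in exposed animals and 17393 to 18477 in control animals.

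Of genes of other interneurons 1 of 17 passed and was higher, against 2.62% of all 14217 genes, with a median of 0.01. This was Crh, corticotropin-releasing hormone, at 311 ± 49.8 in exposed animals and 218 ± 20.3 in control animals (SD, n = 6 each, 1.42-fold, adjusted p = 0.0277). Its lowest exposed animal (267) was above the highest control animal (247), and 1.98% of all probe sets had the exposed animals above in this way. The call of Crh was lost with RNA quality as a covariate (adjusted p = 0.0618), with control 4 and exposed 3 and 5 left out together (0.0531), and without control 2, 3, 4 or 5 or exposed 2 or 4 (0.0586 to 0.0651). Htr3a, the serotonin-gated channel of a further interneuron class, had a log2 difference of -0.19 ± 0.07 (adjusted p = 0.272), and the cannabinoid receptor gene Cnr1 one of 0.08 ± 0.03 (adjusted p = 0.296). Of genes of GABA synthesis and transport 0 of 5 passed, and 0 had an unadjusted p under 0.05, against 15.9% of all 14217 genes. Their smallest p-values were those of the transporter Slc6a11 (log2 difference -0.47 ± 0.23, adjusted p = 0.429) and the synthesising enzymes Gad2 (-0.15 ± 0.14) and Gad1 (-0.03 ± 0.03).

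Of transcription factors of the somatostatin interneuron lineage 0 of 10 passed, 2 with an unadjusted p under 0.05, against 15.9% of all 14217 genes, and the median was -0.05. The 14217 genes include some at the floor on every array, whose difference is 0. Maf had a log2 difference of 0.13 ± 0.04 (adjusted p = 0.194), Nr2f1 one of -0.14 ± 0.06 (adjusted p = 0.326) and Nr2f2 one of -0.06 ± 0.03 (adjusted p = 0.509).

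Peptide precursors are cut and stored in secretory granules. Of 16 genes of this machinery 1 passed and was higher, against 2.62% of all 14217 genes. The median was 0.00. Scg2, secretogranin II, a granule protein, was at 5340 ± 96.6 in exposed animals and 4824 ± 83.4 in control animals (SD, n = 6 each, 1.11-fold, adjusted p = 0.000401). All exposed animals were above every control animal for Scg2, as in 1.98% of all probe sets. Chga, chromogranin A, had a log2 difference of 0.07 ± 0.03 (adjusted p = 0.290), and the protease gene Furin one of 0.15 ± 0.06 (adjusted p = 0.306).

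The Sst gene is a classic target of cyclic AMP acting through protein kinase A and CREB. Of 19 genes of this pathway 2 passed, both higher, against 2.62% of all 14217 genes that passed and were higher. The median was 0.00. Crem, which encodes activators and the repressor ICER, was at 1396 ± 182 in exposed animals and 766 ± 121 in control animals (SD, n = 6 each, 1.83-fold, adjusted p = 0.00191). Its lowest exposed animal (1201) was above the highest control animal (923), and 1.98% of all probe sets had the exposed animals above in this way. Prkar2a, a regulatory subunit of protein kinase A, was at 1505 ± 72.3 in exposed animals and 1346 ± 51.0 in control animals (SD, n = 6 each, 1.12-fold, adjusted p = 0.0393). The call of Prkar2a was lost with quantile normalization (adjusted p = 0.0544), with RNA quality as a covariate (0.153), with control 4 and exposed 3 and 5 left out together (0.0932), and without any 1 animal other than control 1 or exposed 5 or 6 (0.0698 to 0.0937), while that of Crem was kept in all 24 alternatives. Pkia, an inhibitor of the kinase, had a log2 difference of -0.13 ± 0.04 (adjusted p = 0.115).

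Downstream of the receptors, 0 of 17 genes of inhibitory G proteins and their channels passed, 4 of 17 (23.5%) with an unadjusted p under 0.05, against 15.9% of all genes. The median was -0.03, and 4 of 17 (23.5%) log2 differences were above 0, against 41.4% over all genes. Both shares over all genes include genes at the floor on every array, whose difference is 0. Of the 17 listed genes 0 were at the floor on every array, so the shares are not of like sets. Cacna1b, the pore of the N-type calcium channel, had a log2 difference of -0.11 ± 0.03 (adjusted p = 0.148). Kcnj3, a subunit of the potassium channel opened by these G proteins, had one of -0.22 ± 0.07 (adjusted p = 0.193), and Gnao1, a G protein subunit, one of -0.09 ± 0.03 (adjusted p = 0.208). Of adenylyl cyclases, the enzymes that the receptors inhibit, 0 of 7 passed, 1 of 7 (14.3%) with an unadjusted p under 0.05, and the median was 0.01. Adcy4 (log2 difference 0.15 ± 0.06), Adcy9 (0.31 ± 0.15) and Adcy3 (0.04 ± 0.04) had the smallest p-values.

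Of 10 genes of receptor desensitisation and associated phosphatases 2 passed, both higher, against 2.62% of all 14217 genes that passed and were higher. The lists were chosen with earlier results of these data known, so nothing is read from this share. The median was 0.02. Grk6, a kinase that phosphorylates active receptors, was at 2360 ± 65.4 in exposed animals and 2155 ± 76.1 in control animals (SD, n = 6 each, 1.10-fold, adjusted p = 0.0214). Ptpn11, the phosphatase SHP2 that somatostatin receptors recruit, was at 4017 ± 69.9 in exposed animals and 3797 ± 86.4 in control animals (SD, n = 6 each, 1.06-fold, adjusted p = 0.0280). Neither passed with RNA quality as a covariate (adjusted p = 0.0501 for Grk6 and 0.116 for Ptpn11). The call of Grk6 was also lost without control 3 or 6 or exposed 1 or 2 (0.0505 to 0.0561), and that of Ptpn11 without any 1 animal other than control 2 or exposed 3 or 4 (0.0533 to 0.0645) and with control 4 and exposed 3 and 5 left out together (0.158). Grk5 had a log2 difference of 0.11 ± 0.06 (adjusted p = 0.497).

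Of 10 genes of the growth hormone axis, which hypothalamic somatostatin restrains, 0 passed. Of these, 0 had an unadjusted p under 0.05, against 15.9% of all 14217 genes. Ghrh, the releasing hormone (log2 difference -0.05 ± 0.03), Ghrl (0.08 ± 0.08) and Pomc (0.04 ± 0.05) had the smallest p-values, with mean intensities of 63.4, 66.3 and 81.3 in exposed animals and 65.9, 62.7 and 78.9 in control animals, near the floor.

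**Figure D4:**
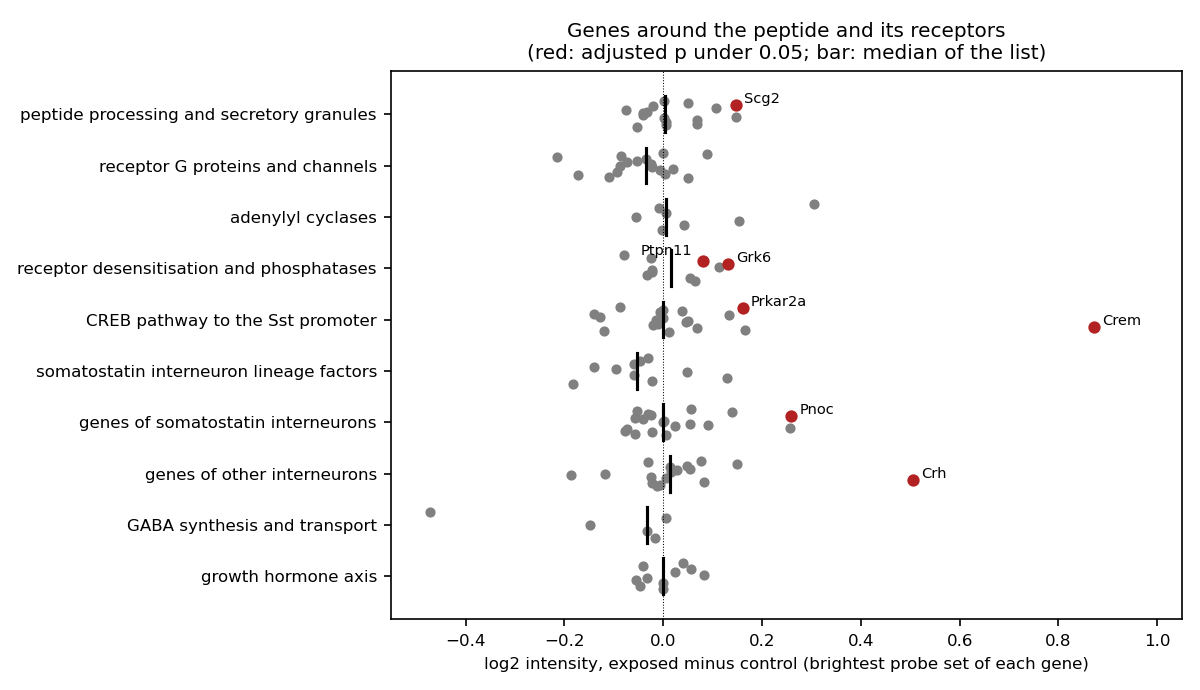
Log2 difference (exposed minus control, horizontal axis) of each gene's brightest probe set in 10 lists around the peptide and its receptors, with 1 point per gene and a bar at the median of each list. The genes that passed, all higher in exposed animals, are named, and the medians lie between -0.05 and 0.02.

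Array medians ran from 235 to 245. Each marker was above the floor on every array, apart from Kl of the choroid plexus list, at the floor on all 12 arrays, and Eomes of the olfactory bulb list, at it on 11. Over the 10 cell type and region lists 1 marker passed, Slco1a4 of the endothelial list, lower in exposed animals. Over all 14217 genes 0.844% passed and were lower. Of the 7 endothelial markers 1 had a log2 difference above 0, Slc2a1, at 1936 ± 162 in exposed animals and 1682 ± 84.5 in control animals (SD, n = 6 each). All 6 exposed animals were above every control animal for Slc2a1, as in 1.98% of all probe sets, and it did not pass (adjusted p = 0.0930 in limma). For Slco1a4, and for Rgs9 of the striatum list, all 6 exposed animals were below every control animal, as in 0.725% of all probe sets. Rgs9 did not pass (adjusted p = 0.0527 in limma). The summed intensity of the 7 endothelial markers was 7797 to 8087 in exposed animals and 7991 to 8803 in control animals, and that of the 5 olfactory bulb markers was 989 to 1120 in exposed animals and 922 to 2624 in control animals, with control 4 at the top. For the 6 hypothalamus markers the sum was 4341 to 4685 in exposed animals and 4109 to 5342 in control animals. The part of these markers in the values of Sstr2 was not tested.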

How the data were processed

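Forebrain RNA of 6 exposed and 6 control rats was measured on 1 Affymetrix array each, with labelled cRNA made by the maker's standard procedure, per the labels' protocols. The deposited values are linear intensities, 1 for each probe set in each animal. The authors' background correction, summary method and normalization are not given in the sources used here. Array medians lay within 0.06 (log2) and upper quartiles within 0.07, so no further normalization was done. Values were raised to the 20th percentile of all values (the floor, 53.9) and taken to log2. limma 3.58.1 in R 4.3.3 (lmFit with the group as its only term, eBayes with a mean-variance trend) was fitted to 31042 probe sets, with 57 array control probe sets left out, and the Benjamini-Hochberg adjustment ran over all 31042. The number of arrays limits the precision, and each animal is 1 replicate. The fit was tested on simulated data.

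The platform annotation names the probe sets: 20832 have 1 symbol, 436 several and 9831 none. Symbols looked up by Entrez ID in the RefSeq gene table (GRCr8) changed in 0 cases, and 68 IDs were unmatched. Lists use the brightest probe set of a gene. The members and the gene lists were chosen with earlier results of these data known, and the promoter motifs with the sequences in view. Besides all probe sets of the family, up to 3 genes of each list with the smallest p are named, and the 5 genes closest to Sst. Alternatives were 22 planned settings and 2 added after seeing the data. The same animal numbers occur in both groups, and the correlation of same-numbered deviations ran from -0.08 to 0.16, so the numbers were not taken as pairs.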

Additional observations from a re-analysis of the deposited data

Results flagged for a closer look

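Within groups of 6 animals, 3 of 16 sets of values had 1 animal far from the others by Dixon's test at the 95% level, which chance gives in about 1 of 20 groups. All were probe sets of Sstr1. At the brightest probe set exposed animal 2 was low, at 1297 against 1420 to 1472 in the other exposed animals, and control animal 4 was low, at 1365 against 1509 to 1591 in the other control animals. At the dimmest probe set exposed animal 5, at 57.3, was the 1 value above the floor, against 44.2 to 48.8 in the other exposed animals.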

How the results depend on the processing

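Of the family, 2 probe sets were higher in exposed animals in the reported fit. The count was 1 with a replicate block (the animal number as a term), with RNA quality as a covariate, and with control 4 and exposed 3 and 5 left out together (chosen after seeing the data), and it ran from 1 to 2 with 1 animal left out. The block gave the dimmer Sstr2 probe set an adjusted p of 0.0509 and the brightest one 0.0153, and 3 of 12 animals were closest to their own number. The count of lower probe sets, 0 as reported, ran from 0 to 1 with 1 animal left out, the 1 being the second Sstr1 probe set without exposed animal 4. Over all probe sets 796 passed, 435 with the block, 510 without those 3 arrays, 913 with the dimmest 40% left out and 1167 with array weights. With 1 animal left out this count ran from 559 to 804. In the lists, desensitisation and phosphatases (2 as reported) gave 1 with quantile normalization or the block, which lost Grk6 (adjusted p = 0.0581 and 0.176). This list also gave 1 with the dimmest 40%, the probe sets at the floor or the 3 arrays left out, which lost Ptpn11. It gave 0 with the RNA quality covariate, and 0 to 2 with 1 animal left out. The CREB pathway (2) gave 1 with quantile normalization, the RNA quality covariate or the 3 arrays left out, and 1 to 2 with 1 animal left out. Genes of other interneurons (1) gave 0 with the block, the covariate or the 3 arrays left out, and 0 to 1 with 1 animal left out. Genes of somatostatin interneurons (1) gave 0 with the block, where Pnoc had an adjusted p of 0.0522. G proteins and channels (0) gave 1 with the block and 0 to 1 with 1 animal left out. The causes were not tested. The genes most like Cort were not run, since no probe set carries its symbol alone.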
